A study of Homo sapiens with 6 samples.

Results

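The 9 genes described here encode enzymes that deaminate bases in DNA or RNA: the 7 members of the APOBEC3 family (APOBEC3A, APOBEC3B, APOBEC3C, APOBEC3D, APOBEC3F, APOBEC3G and APOBEC3H) and the RNA-editing adenosine deaminases ADAR and ADARB1. They were chosen by symbol, with earlier results of these data known. All 9 had a row among the 26899 genes of the deposited counts table. In order to describe these genes in kidney tubule cells, 6 poly(A)-selected RNA-seq libraries of HK-2 were used, HK-2 being an established human line from the proximal tubule that carries a human papillomavirus 16 transformation. Of these libraries, 3 were labelled ANXA2 knockdown (shANXA2) and 3 were labelled control. The control libraries are called wild type in one label and shCtrl in another, so the labels do not settle whether the control cells received a control hairpin. Plasmids were delivered to the cells with a lipid reagent, and the labels give neither the time after transfection nor whether the libraries of a group came from separate cultures. The p-values below therefore measure only the spread between these libraries, which may be technical.

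APOBEC3 enzymes convert cytosine to uracil in single-stranded DNA and by this act against retroviruses, retrotransposons and some DNA viruses. APOBEC3A and APOBEC3B are also known as sources of cytosine mutations in tumours, and the E6 and E7 proteins of high-risk papillomaviruses are known to raise APOBEC3B. ADAR and ADARB1 convert adenosine to inosine in double-stranded RNA. Editing by ADAR keeps the cell's own double-stranded RNA from setting off cytosolic RNA sensors, and its long isoform, like several APOBEC3 genes, is known to respond to interferon in many tissues.

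The 7 APOBEC3 genes lie side by side on the plus strand of chromosome 22, at chr22:38952741-39104067 of GRCh38, a span of 151.3 kb in GENCODE release 44. Within it APOBEC3A is at chr22:38952741-38963184, APOBEC3B at chr22:38982347-38992804, APOBEC3C at chr22:39014257-39020352 and APOBEC3D at chr22:39021113-39033277. APOBEC3F follows at chr22:39040604-39055972, APOBEC3G at chr22:39077067-39087743 and APOBEC3H at chr22:39097224-39104067. ADAR is on the minus strand at chr1:154581695-154628013, and ADARB1 is on the plus strand at chr21:45073853-45226560. Their reference transcripts have 4 exons in APOBEC3C, 5 in APOBEC3A and APOBEC3H, 7 in APOBEC3D and APOBEC3F, 8 in APOBEC3B and APOBEC3G, 11 in ADARB1 and 15 in ADAR.

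Promoter sequences from RefSeq (GRCh38.p14) were matched to APOBEC3H, ADAR and ADARB1, with 8 annotated start sites in all. APOBEC3A, APOBEC3B, APOBEC3C, APOBEC3D, APOBEC3F and APOBEC3G had no entry in the table used. The 250 bases before 3 of the start sites are printed 5′ to 3′ on the strand of the gene. Of 3 annotated ADAR starts, the outermost and the near one are shown, since these starts lie far apart in a gene whose counts were summed, and a start at position 154627971, just inside the outermost one, is not printed because its window largely repeats it, and APOBEC3H is shown as a member that was almost silent in these cells. Capitals mark the letters GAAA, or TTTC on the other strand, which is one arm of the site for interferon-stimulated transcription factors.
ADAR, far start, minus strand, chr1:154627998-154628247: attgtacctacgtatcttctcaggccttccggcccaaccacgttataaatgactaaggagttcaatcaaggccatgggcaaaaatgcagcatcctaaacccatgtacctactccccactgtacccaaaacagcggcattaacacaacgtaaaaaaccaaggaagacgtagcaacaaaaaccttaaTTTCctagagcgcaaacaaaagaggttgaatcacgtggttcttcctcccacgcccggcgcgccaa
ADAR, near start, minus strand, chr1:154608798-154609047: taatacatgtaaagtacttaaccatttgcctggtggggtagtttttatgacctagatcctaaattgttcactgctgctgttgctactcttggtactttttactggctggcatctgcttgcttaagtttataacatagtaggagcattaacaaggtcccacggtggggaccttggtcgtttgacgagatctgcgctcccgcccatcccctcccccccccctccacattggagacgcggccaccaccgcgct
APOBEC3H, plus strand, chr22:39096994-39097243: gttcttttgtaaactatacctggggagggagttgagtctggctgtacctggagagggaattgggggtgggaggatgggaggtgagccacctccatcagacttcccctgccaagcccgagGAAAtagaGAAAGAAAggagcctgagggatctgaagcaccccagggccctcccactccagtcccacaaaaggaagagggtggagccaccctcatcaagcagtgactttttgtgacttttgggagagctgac
The letters GAAA were searched on both strands and were present in 4 of the 8 windows, against 82.6% of 35116 promoter windows of this length. They stood 3 times before APOBEC3H, once before the printed far ADAR start and nowhere before the near ADAR start. The windows of both far ADAR starts hold the same TTTC, so 2 of the 4 windows with a match share it. The windows before the ADARB1 starts at positions 45074578 and 45074580 also largely repeat each other and hold no match. The 8 windows are therefore not all separate sequences. The full site GAAANNGAAA was in 0 of the 8 windows and in 3.02% of all windows. The STAT site TTCNNNGAA was in 0 of the 8 and in 6.57% of all, and an NF-kB site was in 1 of the 8, before one ADARB1 start, and in 9.96% of all. Each match describes letters in the window only, and the GAAA search also counts the arms of any full site.

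The libraries held 24231267 to 34561675 reads assigned to genes, and the 9 genes took 0.0252% to 0.0316% of them. ANXA2, the gene named as the target, did not separate the groups. Its CPM, a read count scaled to library depth and here also by TMM, was 1539 ± 21.3 (SD, n = 3) under the knockdown label and 1598 ± 119 (SD, n = 3) under the control label, a log2 fold change of -0.05 (95% interval -0.22 to 0.11, edgeR adjusted p = 0.848). ANXA2 RNA therefore did not bear out the knockdown label, and the groups are called by their labels throughout. Of 15299 genes that passed the low-count filter, 0 (0%) passed an adjusted p of 0.05 in edgeR's quasi-likelihood test, whereas DESeq2 called 31 of the 16467 genes it gave an adjusted p (0.188%) and limma-voom called 0. At an unadjusted p under 0.05 edgeR had 1251 genes (8.18%), of which 590 were higher (3.86%) and 661 lower (4.32%) under the knockdown label. The cells had tubule and epithelial transcripts in 15 of 16 fixed markers, summing to 3038 to 3175 CPM in the libraries labelled knockdown and 2570 to 3129 CPM in controls. Among the proximal tubule markers of this list, AQP1, LRP2, CUBN and ANPEP had at most 12 reads in any library, SLC34A1 had 5 to 22 reads and SLC22A6 was not listed, whereas the brush-border enzymes GGT1 and MME had 5406 to 9247 and 118 to 272 reads. Of 15 leukocyte markers, 7 had reads, with summed levels of 5.27 to 10.99 CPM in the libraries labelled knockdown and 6.19 to 9.37 CPM in controls. PTPRC, CD3E and CD3D were not listed in the counts table, whereas LCP1 had 44 to 181 and CD14 had 36 to 118 reads per library. CORO1A had 12 to 42 and LAPTM5 had 2 to 56 reads.

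In order to compare the genes with each other, levels were taken per length as deposited FPKM (fragments scaled to transcript length and library depth). APOBEC3C, the short deaminase with a lone catalytic domain, was at 24.3 ± 3.70 FPKM (SD, n = 6, both groups together), and ADAR was at 23.9 ± 1.42 FPKM. Their ranges over the 6 libraries overlapped, and they stood at percentiles 90.7 and 90.6 of the 26803 genes with an FPKM value. APOBEC3B, the mainly nuclear family member, followed at 13.3 ± 1.77 FPKM (percentile 85.2), a mean 1.81-fold below ADAR and without overlap of the libraries. APOBEC3A, the most active of the family on DNA in many assays, was 3.36-fold below APOBEC3B at 3.94 ± 0.604 FPKM (percentile 71.9). APOBEC3F and APOBEC3G, both known for restricting HIV-1 that lacks Vif, had 1.26 ± 0.310 and 1.03 ± 0.191 FPKM, and ADARB1, the editor of glutamate receptor transcripts in neurons, had 0.703 ± 0.134 FPKM. Neighbours among these last members overlapped in range. APOBEC3H and APOBEC3D did not exceed 0.07 and 0.04 FPKM in any library.

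**Figure D1:**
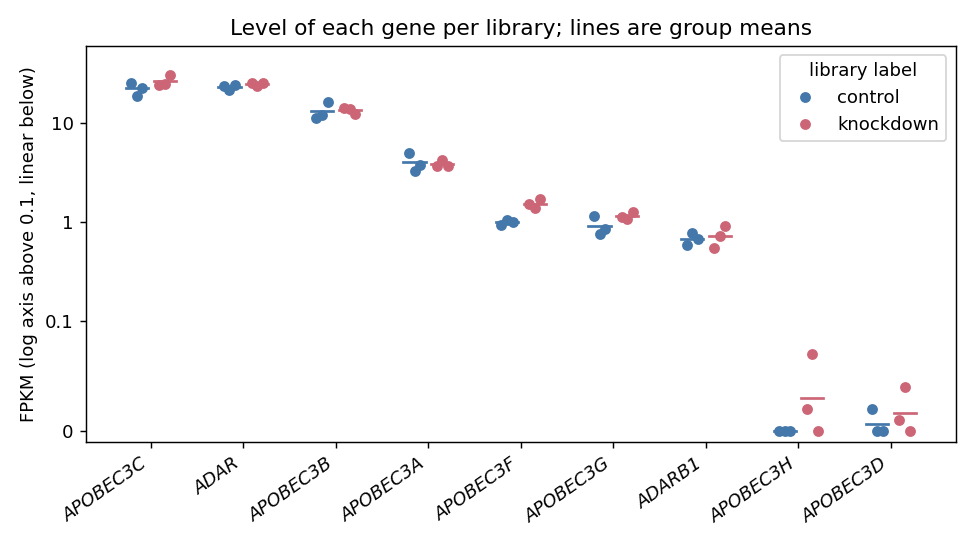
Deposited FPKM (log axis above 0.1, linear below) of the 9 genes, with 1 point for each of the 3 control and 3 knockdown libraries and a line at each group mean. APOBEC3C and ADAR lie near 24 FPKM, APOBEC3H and APOBEC3D lie near 0, and the 2 groups separate for APOBEC3F only among the 7 genes tested.

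APOBEC3C and APOBEC3B supplied most of the family's transcripts per length. Of the summed FPKM of the 7 APOBEC3 genes, APOBEC3C made up 55.3% ± 3.84 (SD, n = 6), APOBEC3B 30.4% ± 4.36 and APOBEC3A 9.03% ± 1.36. APOBEC3F held 2.86% ± 0.558 and APOBEC3G 2.35% ± 0.282. The sum was 43.9, 36.0 and 44.6 FPKM in control libraries 1 to 3 and 44.6, 45.0 and 49.1 FPKM in knockdown libraries 1 to 3. The groups overlapped in this sum. The balance of the leading pair varied between libraries, since APOBEC3C exceeded APOBEC3B by 1.41-fold in control 3 and by 2.46-fold in knockdown 3. ADAR exceeded ADARB1 by 27.4-fold to 46.3-fold.

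**Figure D2:**
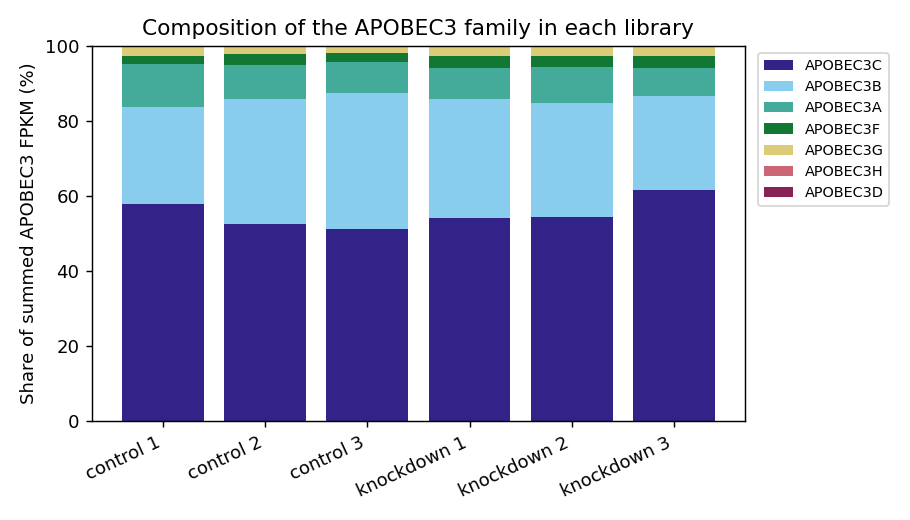
Share of the summed APOBEC3 FPKM (percent, stacked bars from 0 to 100) held by each of the 7 genes in each of the 6 libraries. APOBEC3C is the largest block in every library, from 51.1% in control 3 to 61.6% in knockdown 3, and APOBEC3H and APOBEC3D are too small to see.

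In order to ask whether the labels separated these genes, each was compared between the 3 knockdown and the 3 control libraries. Of the 9 genes, 7 passed the low-count filter (APOBEC3D and APOBEC3H did not), and 0 passed an adjusted p of 0.05 in edgeR, against 0% of all tested genes. The smallest adjusted p among them was 0.599. One member, APOBEC3F, had an unadjusted p under 0.05, which is 1 of 7 tested beside 8.18% of all tested genes. APOBEC3F was also the 1 member whose groups did not overlap with the higher values under the knockdown label, as 7.94% of all tested genes did. In the other direction there were 0 members, beside 7.7% of all tested genes. Of the 7 estimates, 6 were above 0, and their median log2 fold change was 0.12 beside -0.0065 over all tested genes, of which 49.0% were above 0.

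APOBEC3F (ENSG00000128394.16) had 2.99, 3.30 and 3.24 CPM in control libraries 1 to 3 and 4.89, 4.45 and 5.40 CPM in knockdown libraries 1 to 3. All 3 knockdown libraries lay above all 3 control libraries. The means were 4.92 ± 0.476 and 3.18 ± 0.165 CPM (SD, n = 3 each), a 1.54-fold difference (95% interval 1.11 to 2.14) with a log2 fold change of 0.63 (SE 0.209, edgeR unadjusted p = 0.0148, adjusted p = 0.599). The exact two-sided permutation test gave p = 0.1, the smallest value that 3 against 3 allows. The values rested on 73 to 108 reads in control and 147 to 167 reads in knockdown libraries. Over all 15 alternatives the log2 fold change lay between 0.34 and 0.70 with an adjusted p between 0.375 and 0.988. Within the family, APOBEC3F made up 3.39%, 3.04% and 3.44% of the summed FPKM in knockdown libraries and 2.12%, 2.89% and 2.27% in control libraries. Of the 100-base windows of its transcripts, 6.78% also occur in transcripts of other genes, chiefly APOBEC3G (3.77%), and the handling of such shared reads was, for these counts, not given in the sources used here.

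APOBEC3G (ENSG00000239713.7), the partner of APOBEC3F in these shared stretches and in restriction of retroviruses, had 2.25, 1.47 and 1.67 CPM in control libraries and 2.23, 2.09 and 2.46 CPM in knockdown libraries. Control 1 lay above 2 of the knockdown libraries, so the groups overlapped. The log2 fold change was 0.33 (SE 0.300, edgeR adjusted p = 0.757), and the 95% interval of the fold change ran from 0.788 to 2.01. Control 1 was the only control library not below all knockdown libraries, so leaving it out had to separate the groups. The log2 fold change of APOBEC3G was then 0.53 (edgeR unadjusted p = 0.115). Without control 2 the groups overlapped and its log2 fold change was 0.21. With 48 to 76 reads per library, APOBEC3G had the fewest reads of the tested members.

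APOBEC3C (ENSG00000244509.3) had 76.2, 55.5 and 67.8 CPM in control libraries and 72.6, 73.8 and 90.0 CPM in knockdown libraries. Knockdown 3 was the highest and control 2 the lowest, while control 1 lay above the other knockdown libraries. The means were 78.8 ± 9.72 and 66.5 ± 10.4 CPM, a 1.18-fold difference (95% interval 0.951 to 1.48, edgeR unadjusted p = 0.115, adjusted p = 0.647). This estimate moved both ways with single libraries. Control 1 was the only control library of APOBEC3C not below all knockdown libraries, so leaving it out had to separate the groups. The log2 fold change then went from 0.24 to 0.35. The edgeR unadjusted p was then 0.0332, in a comparison where 12.4% of all tested genes had an unadjusted p under 0.05. The log2 fold change fell to 0.13 without control 2 and to 0.14 without knockdown 3, and the groups overlapped in both cases. No 100-base window of APOBEC3C transcripts was shared with another gene, but 1.21% of its 50-base windows were, with APOBEC3F as the main partner. In the annotation its exons also overlap those of the readthrough gene ENSG00000284554 on the same strand.

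APOBEC3B (ENSG00000179750.15), the member that papillomavirus proteins are known to raise, had 22.9, 23.7 and 32.4 CPM in control libraries and 28.7, 27.7 and 24.6 CPM in knockdown libraries. Control 3 was the highest and the other control libraries were the lowest, so the groups overlapped. The means were 27.0 ± 2.16 under the knockdown label and 26.3 ± 5.27 CPM in control, with a fold change of 1.03 (95% interval 0.804 to 1.31, edgeR adjusted p = 0.959). Leaving out control 3, the only control library not below all knockdown libraries, had to separate the groups (log2 fold change 0.22). Without control 1 the estimate was below 0 (-0.05). All 6 libraries carry the papillomavirus 16 transformation, so its relation to the APOBEC3B level cannot be examined here. APOBEC3A (ENSG00000128383.12) had 10.1, 6.52 and 7.51 CPM in control and 7.47, 8.60 and 7.31 CPM in knockdown libraries, with control 1 the highest and control 2 the lowest. Its fold change was 0.972 (95% interval 0.708 to 1.33, edgeR adjusted p = 0.964), and its sign changed without control 1 (log2 fold change 0.15). APOBEC3A and APOBEC3B share sequence, so the split of reads between them is uncertain. Of the 100-base windows of APOBEC3A, 9.16% occur in APOBEC3B transcripts, and 8.39% of those of APOBEC3B occur in APOBEC3A transcripts. With any other gene APOBEC3B shared 14.7%. APOBEC3B-AS1 overlaps exons of APOBEC3B on the opposite strand and did not pass the low-count filter, and the use of strand was, for these counts, not given in the sources used here.

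APOBEC3D (ENSG00000243811.7) had 1, 0 and 0 reads in control and 1, 4 and 0 reads in knockdown libraries. APOBEC3H (ENSG00000100298.15) had 0 reads in each control library and 1, 3 and 0 reads in knockdown libraries. A count of 0 allows up to 3 reads, which is 0.0879 to 0.123 CPM in these libraries, and this limit covers counting error only. No fold change is given for either gene. APOBEC3D shares 80.2% of its 100-base windows with other genes, almost all with the readthrough gene ENSG00000284554 (79.1%) that had no row in the counts table, so its own level is the least certain of the 9. APOBEC3H, whose promoter window is printed above, shared none.

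ADAR (ENSG00000160710.15), the main editor of double-stranded RNA in most tissues, had 170.6, 151.1 and 170.8 CPM in control libraries and 183.6, 169.9 and 179.6 CPM in knockdown libraries. Control 2 was the lowest and 2 knockdown libraries were the highest, but knockdown 2 lay below control 1 and control 3. The means were 177.7 ± 7.07 under the knockdown label and 164.2 ± 11.3 CPM in control, a fold change of 1.08 (95% interval 0.937 to 1.25, edgeR adjusted p = 0.731). With 4162 to 6266 reads per library ADAR had the narrowest interval of the 7 tested genes. Leaving out knockdown 2, the only knockdown library not above all control libraries, had to separate the groups (log2 fold change 0.15). Without control 2 the groups overlapped (log2 fold change 0.059). Counts were summed over the gene, so the long and short ADAR isoforms cannot be told apart. ADARB1 (ENSG00000197381.15) had 4.51, 5.75 and 5.04 CPM in control and 4.19, 5.51 and 6.93 CPM in knockdown libraries, and both the lowest and the highest value were knockdown libraries. Its fold change was 1.08 (95% interval 0.751 to 1.57, edgeR adjusted p = 0.902), and without knockdown 3 the log2 fold change was -0.07. Exons of ADARB1 overlap the pseudogene SSR4P1 on the opposite strand, which had 12 to 31 reads per library. In RNA from whole cultures, fewer cells with a transcript and less of it per cell cannot be told apart for any of these genes.

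**Figure D3:**
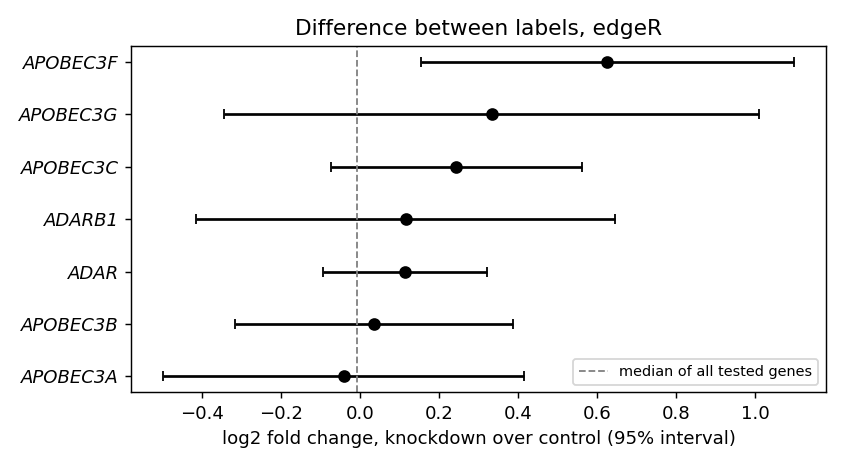
edgeR log2 fold change, knockdown over control, of the 7 tested genes (points) with 95% intervals (bars), 3 libraries per group, and the median of all tested genes as a dashed line. The interval of APOBEC3F (0.15 to 1.10) lies above 0, and the intervals of the other 6 genes include 0.

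The members did not move as a block over the 6 libraries. As a description on the log2 CPM scale, APOBEC3C and APOBEC3G had a Pearson correlation of 0.93, ADAR and APOBEC3G of 0.82, and ADAR and APOBEC3C of 0.81. APOBEC3A and APOBEC3B had a correlation of -0.19, and APOBEC3B and APOBEC3C of -0.06. These are 6 points that share library, depth and label. The genes most like APOBEC3F among 12635 other tested genes were UBE2L6 (Pearson r = 0.996), IFI44 (r = 0.990) and OASL (r = 0.988). UBE2L6, a ubiquitin and ISG15 conjugating enzyme, had 48.7, 53.1 and 49.9 CPM in control and 72.6, 68.0 and 78.0 CPM in knockdown libraries. IFI44 had 3.61, 5.29 and 4.98 CPM in control and 10.1, 8.84 and 12.9 CPM in knockdown libraries, and OASL, an OAS-like protein, had 0.820, 1.59 and 1.60 CPM against 7.27, 6.18 and 9.53 CPM. In all of these genes, as in APOBEC3F, knockdown 3 was the highest library, knockdown 2 the lowest of its group and control 1 the lowest of all. They were picked for their correlation with APOBEC3F, whose groups did not overlap, so this like direction and order follow from the choice. The genes most like APOBEC3C were TARS2 (r = 0.994), MAU2 (r = 0.993) and SLC44A2 (r = 0.993), which like APOBEC3C were highest in knockdown 3 with control 1 above both other control libraries. That likeness also follows from the choice by correlation.

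**Figure D4:**
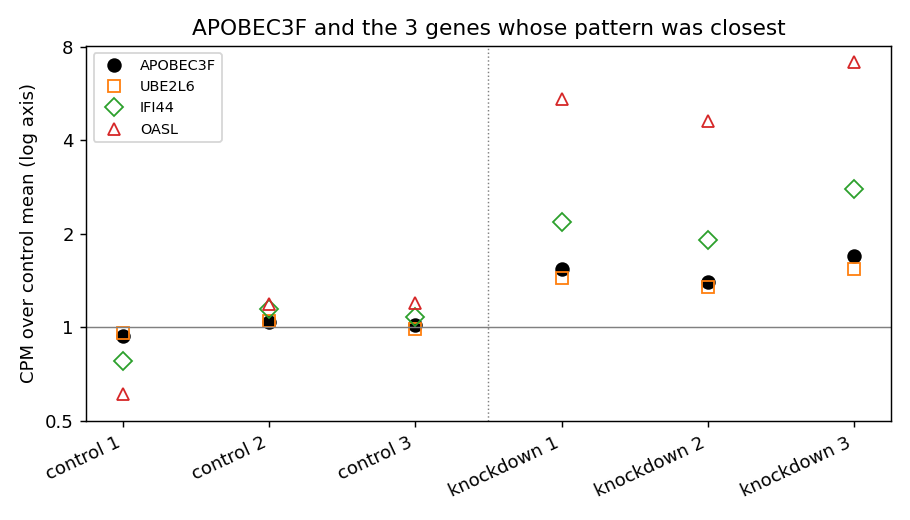
CPM of APOBEC3F, UBE2L6, IFI44 and OASL in each library, divided by the gene's own control mean (log axis, 1 = control mean), with 1 marker per gene and library. All 4 genes are higher in the 3 knockdown libraries, by the least in APOBEC3F and UBE2L6 and by the most in OASL. UBE2L6, IFI44 and OASL were picked for their correlation with APOBEC3F, so their like direction follows from that choice.

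The other genes of these pathways were followed in 7 lists drawn from general knowledge. Of 68 listed genes, 65 had a row and 62 were tested, and 0 passed an adjusted p of 0.05 in edgeR. An unadjusted p under 0.05 was reached by 4 higher and 2 lower genes, beside 3.86% and 4.32% of all tested genes, and the groups did not overlap for 5 higher genes (IFIH1, RIGI, DHX58, APEX1 and SAMHD1) and 6 lower genes, beside 7.94% and 7.7%. This count of 6 moved with single libraries. It was 12 without control 1, where 12.4% of all tested genes had such a p. It was 4 without control 2, knockdown 1 or knockdown 2, where 4.71%, 3.21% and 5.89% of all tested genes had such a p. The median log2 fold change of the 62 was -0.024. Of the double-stranded RNA sensors and binding proteins that meet the substrates of ADAR, 13 were tested, 3 were at an unadjusted p under 0.05 with higher values under the knockdown label and 1 with lower values, and the list median was -0.026. IFIH1, the sensor MDA5 of long double-stranded RNA, had 4.30, 4.28 and 4.11 CPM in control and 9.32, 10.2 and 12.7 CPM in knockdown libraries. Its log2 fold change was 1.34 (SE 0.185, edgeR adjusted p = 0.156), and the adjusted p was 5.956e-06 in DESeq2 and up to 0.731 over the alternatives. DHX58, the sensor LGP2, had 2.25, 1.499 and 3.37 CPM in control and 5.25, 5.45 and 8.17 CPM in knockdown libraries, with a log2 fold change of 1.40 (SE 0.328, edgeR adjusted p = 0.599, DESeq2 adjusted p = 0.0226, range over the alternatives 0.000725 to 0.988). The third higher gene was RIGI, the sensor of RNA with a 5′ triphosphate, with a log2 fold change of 0.42 (SE 0.178, edgeR adjusted p = 0.608). STAU2, an RNA-binding protein of transport granules, had 24.1, 32.6 and 26.7 CPM in control and 17.6, 21.9 and 20.6 CPM in knockdown libraries (log2 fold change -0.47, SE 0.150, edgeR adjusted p = 0.599, range over the alternatives 0.235 to 0.988), and its unadjusted p went from 0.0113 to 0.0578 without knockdown 1. ILF2 and DHX9 were the most abundant of this list, at 200.6 and 57.1 FPKM.

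The 6 other retroviral restriction and dNTP-limiting factors, all tested, had a median of 0.14. The 8.18% of all tested genes at an unadjusted p under 0.05 stands beside each list count that follows. Of these 6 factors, 1 was at that threshold. It was SAMHD1, the dNTP hydrolase, with 27.0, 27.0 and 24.7 CPM in control and 39.7, 34.5 and 49.4 CPM in knockdown libraries (log2 fold change 0.65, SE 0.145, edgeR adjusted p = 0.583, DESeq2 adjusted p = 0.0435, range over the alternatives 0.00373 to 0.988). RNASEH2A (67.4 FPKM) and MOV10 (19.4 FPKM) led this list by level. Of the 9 genes of uracil and base excision repair, which acts on the uracil that APOBEC3 enzymes leave in DNA, 0 had an unadjusted p under 0.05 (median -0.017). APEX1 (123.5 FPKM) and UNG (50.9 FPKM) were the most abundant. The list of proteins linked to APOBEC or ADAR enzymes or to editing had 0 of 10 tested genes at that threshold (median -0.045). It was led by ELOB at 150.0 and AIMP2 at 70.4 FPKM. Free nucleoside and nucleotide deaminases had 0 of 7 tested (median 0.05), led by DCTD at 51.1 and AMPD2 at 20.5 FPKM. The tRNA deaminase list had 0 of 3 tested (median -0.085), with ADAT1 at 3.06 and ADAT3 at 2.80 FPKM, and ADARB2, a brain relative of ADARB1, had 3 reads in all.

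A further list held 14 genes of factors or complexes with known sites at the APOBEC3B promoter. Of these, 1 was at an unadjusted p under 0.05, beside 8.18% of all tested genes, and the median was -0.097. This was LIN9, a subunit of the DREAM and MuvB complexes, with 15, 19.1 and 15.2 CPM in control and 11.8, 11.6 and 13.9 CPM in knockdown libraries (log2 fold change -0.40, SE 0.157, edgeR adjusted p = 0.605, range over the alternatives 0.369 to 0.988). The unadjusted p of LIN9 was 0.0311, and it was 0.0546 with a replicate block, 0.104 without control 2, 0.105 without knockdown 1 and 0.1005 without knockdown 2. MYBL2 (244.1 FPKM) and E2F4 (50.6 FPKM) were the most abundant.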

How the data were processed

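Gene expression was measured by directional poly(A) RNA-seq in 3 control and 3 ANXA2 knockdown libraries of HK-2, grouped by their titles. Raw read counts per gene and FPKM values (2 decimals) were deposited by the authors. The submitters' processing notes name bcl2fastq, TopHat2, edgeR and GRCh38, with the counting program, annotation release, use of strand and handling of multi-gene reads not given in the sources used here. All genes were fitted in R 4.3.3 with edgeR 4.0.16 (quasi-likelihood test, TMM scaling, filterByExpr with a minimum count of 10 and a total of 15, Benjamini-Hochberg adjustment over 15299 genes), after the code was tested on simulated data. DESeq2 1.42.0, limma 3.58.1 (voom, and trend on log2 FPKM plus 1 or 0.1), other scalings, no filter, a replicate block and leaving out each library were alternatives. DESeq2 adjusted p-values given as missing were left out. Replicates were checked for duplicates, and the chi-square per degree of freedom of each pair was 9.64 to 49.7, so each counted as 1 sample. Depth was 24231267 to 34561675 reads per library.

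Named by rule were the 9 members, the ANXA2 check, the 2 genes of highest mean FPKM and up to 3 with the smallest unadjusted p under 0.05 and at least 1 CPM in each list, and the 3 genes with the highest correlation (log2 CPM, prior count 2) to APOBEC3C, the member of highest FPKM, and to members whose groups did not overlap. RIGI, RELB, NFKB2, TEAD4, E2F6 and AMPD3, and the tubule and leukocyte markers, were named after their values were seen. Members and lists were chosen with earlier results of these data known. Older symbols were matched by gene identifier. A list of other related deaminases is not reported here. Transcript windows of 100 bases were compared over GENCODE release 44, and coordinates are from that release.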

Additional observations from a re-analysis of the deposited data

How the results depend on the processing

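The 2 replicated groups were refitted under 15 alternatives. The members past an adjusted p of 0.05 were 0 under each of them. Of the 105 alternative log2 fold changes of the 7 tested members, 98 kept their sign and 7 reversed, and none came past the threshold. The reversals were APOBEC3A at 0.0012 in limma-voom, 0.15 without control replicate 1 and 0.0049 without knockdown replicate 3 (leave-one-out range -0.17 to 0.15), APOBEC3B at -0.052, -0.032 and -0.0078 without control replicate 1, control replicate 2 and knockdown replicate 1 (range -0.052 to 0.22), and ADARB1 at -0.073 without knockdown replicate 3 (range -0.073 to 0.29). All tested genes past an adjusted p of 0.05 went from 0 to 165 without the low-count filter, to 31 in DESeq2, and lay between 0 and 4 with 1 library left out. When 1 library was left out, members at an unadjusted p under 0.05 lay between 1 and 2, beside 3.21% to 12.4% of all tested genes. The most came without control replicate 1, where that share was 12.4%. Members without overlap of the groups lay between 1 and 3, also with the most without control replicate 1. Groups of 3 and 2 libraries separate more easily, and the share of all tested genes that did so was not counted. This range of 1 to 3 is therefore not read as a difference. Genes of the 7 lists at an unadjusted p under 0.05 numbered 6 of 62, beside 8.18% of all tested genes. They numbered 10 without the filter, beside 7.73%, and 4 to 12 with 1 library left out, beside 3.21% to 12.4%. The replicate numbers did not pair the samples (correlations of deviations -0.06, 0.12 and -0.20 for replicates 1 to 3), and with a replicate block 0 members passed the adjusted threshold and 1 had an unadjusted p under 0.05, as without it. By CPM, which is not per length, ADAR ranked 1 and APOBEC3C 2, and ADARB1 ranked 5 ahead of APOBEC3F. The cause of these changes was not tested. Low counts limit APOBEC3D, APOBEC3H and, less so, APOBEC3G.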

Other observations

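The level of APOBEC3B varied between libraries more than between labels, and it was therefore set beside the 14 factors listed for its promoter. This comparison was chosen after the values were seen. On the log2 CPM scale over the 6 libraries, the Pearson correlation with APOBEC3B was 0.83 for RELB (Spearman rho 0.94) and 0.83 for NFKB2 (rho 0.77), which form the non-canonical NF-kB dimer, 0.62 for E2F4, and from -0.64 (TEAD4) to 0.54 (E2F6) for the remaining factors. RELB had 21.0, 16.0 and 31.7 CPM in control and 31.4, 30.9 and 24.2 CPM in knockdown libraries. NFKB2 had 89.8, 95.1 and 162.3 CPM in control and 170.1, 201.9 and 112.0 CPM in knockdown libraries. Control 3, knockdown 1 and knockdown 2 were the 3 highest libraries for APOBEC3B, RELB and NFKB2 alike. Their order within these 3 differed for NFKB2. This set of libraries was not confined to these genes, and the share of all tested genes with it was not counted. The same libraries had the most genes detected (21819, 21543 and 21711, against 18861 to 20764 in the others). AMPD3, a listed gene outside these factors, also had its most reads there (525, 496 and 714, against 111 to 334). A link between the factors and APOBEC3B was not tested. The 6 points share library and depth, and the correlations are a description of these libraries.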
